A study of Mus musculus with 4 samples.

Results

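Adipogenic regulators and adipocyte genes were examined in mammary fibroblasts, as 10 genes chosen by name, with earlier results of these arrays known: the early regulators *Cebpb*, *Cebpd*, *Pparg* and *Cebpa*, the modulators *Medag* and *Dlk1*, and the adipocyte genes *Fabp4*, *Lpl*, *Adipoq* and *Plin2*. They were read by 18 of the 34958 probe sets that carried exactly 1 gene symbol, and are 10 of the 18194 genes so covered. The mammary gland lies in a fat pad, and some fibroblasts of such tissue are precursors of fat cells. In cultured precursors, C/EBPβ and C/EBPδ come first and lead to PPARγ and C/EBPα, which keep each other on and switch on genes for the uptake and storage of fatty acids. DLK1, also called Pref-1, holds precursors back, and mature fat cells secrete adiponectin, the product of *Adipoq*. These genes are not private to fat cells, since macrophages also express *Pparg*, *Fabp4*, *Lpl* and *Plin2*, and capillary endothelial cells express *Fabp4*.

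RNA came from second-passage fibroblasts of 16-week-old female FVB/N mice, and 1 Affymetrix array was hybridised for each of 4 genotypes. All 4 carried Ets2db/loxP, which joins a knockout allele lacking a working DNA-binding domain to a loxP allele that Cre removes, so the cells called *Ets2* present held a single functional allele. Normal fibroblasts came from Ets2db/loxP mice and, as *Ets2* null cells, from FspCre;Ets2db/loxP mice, where the fibroblast-specific protein 1 promoter drives Cre. Tumor fibroblasts with *Ets2* came from ErbB2;Ets2db/loxP mice, and tumor *Ets2* null fibroblasts from the genotype ErbB2;Fsp-cre;Ets2db/loxP (its title has ErbB, its other labels ErbB2). In these mice the mouse mammary tumor virus promoter drives *ErbB2* in the epithelium, and their cells were taken before tumors could be felt. Whether cells of several mice were pooled is not stated. Values are on the log2 scale after Robust Multichip Average (RMA) processing. A value below 6 is treated here as not clearly above background, since no detection calls were used and the lower quartiles of the arrays lay between 4.01 and 4.09. Each genotype being 1 array, nothing gives the spread of replicates and no test was possible. Neighbours in the order of the 4 values of a gene cannot be said to differ, and each difference describes these arrays alone. The robust SD of the Ets2 difference (*Ets2* null minus *Ets2* present) over all probe sets was 0.225 in normal and 0.270 in tumor fibroblasts and serves as a measure of size. *Ets2* itself had values between 8.14 and 8.35 on its brightest probe set over the 4 arrays, which does not check the genotypes, because the place of its probes relative to the deleted part is unknown here. The 15 fibroblast markers had medians between 11.47 and 12.50 over the 4 arrays. *Col1a2* lay between 14.29 and 14.61 and *Vim* between 13.97 and 14.06, while *Fap* lay between 5.85 and 7.79. Of 7 defining markers of mature fat cells, the 5 measured were dim. *Adipoq*, *Cidec* and *Lep* were below 6 on every array, and *Retn* and *Slc2a4* lay between 5.80 and 6.28. *Plin1* and *Cfd* had no probe set with exactly 1 gene symbol. In bulk RNA, fewer cells of a type and less RNA per cell cannot be told apart.

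*Pparg* and *Medag* were the members that differed most between the genotypes, and they did so in opposite directions in normal *Ets2* null fibroblasts. *Pparg*, the nuclear receptor that drives fat cell formation, had log2 values of 7.74 in normal fibroblasts with *Ets2*, 9.53 in normal *Ets2* null fibroblasts, 9.20 in tumor fibroblasts with *Ets2* and 8.53 in tumor *Ets2* null fibroblasts. The normal array with *Ets2* was the low one. Without *Ets2*, *Pparg* was 3.46-fold higher in normal fibroblasts, a log2 difference of 1.79, and 1.59-fold lower in tumor fibroblasts, at -0.67. Only 21 of 18194 genes had a higher Ets2 difference in normal fibroblasts. *Medag*, a gene whose product promotes fat cell formation in mouse cell culture, was at 8.32, 6.09, 8.01 and 8.18 in the same order on its brighter probe set. Its other probe set gave 6.90, 4.92, 6.85 and 6.84. The normal *Ets2* null array was thus the low one on both probe sets, and below 6 on the dimmer. The difference in normal fibroblasts was -2.22, 4.66-fold lower, on the brighter probe set and -1.98 on the other, and in tumor fibroblasts it was 0.17 and -0.01. On the brighter probe set 1 gene had a lower Ets2 difference in normal fibroblasts. *Medag* was the 1 member more than 4-fold lower there, a size passed downward by 0.0220% of all genes, and it is in a gene list the study drew from these arrays, so that count is not independent evidence. *Pparg* was the 1 member more than 2-fold higher, as were 0.621% of all genes, and *Medag* was the 1 member more than 2-fold lower, as were 0.357%. In tumor fibroblasts no member passed 2-fold on its brightest probe set, while 0.341% of all genes were higher and 1.74% lower by that size.

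**Figure D1:**
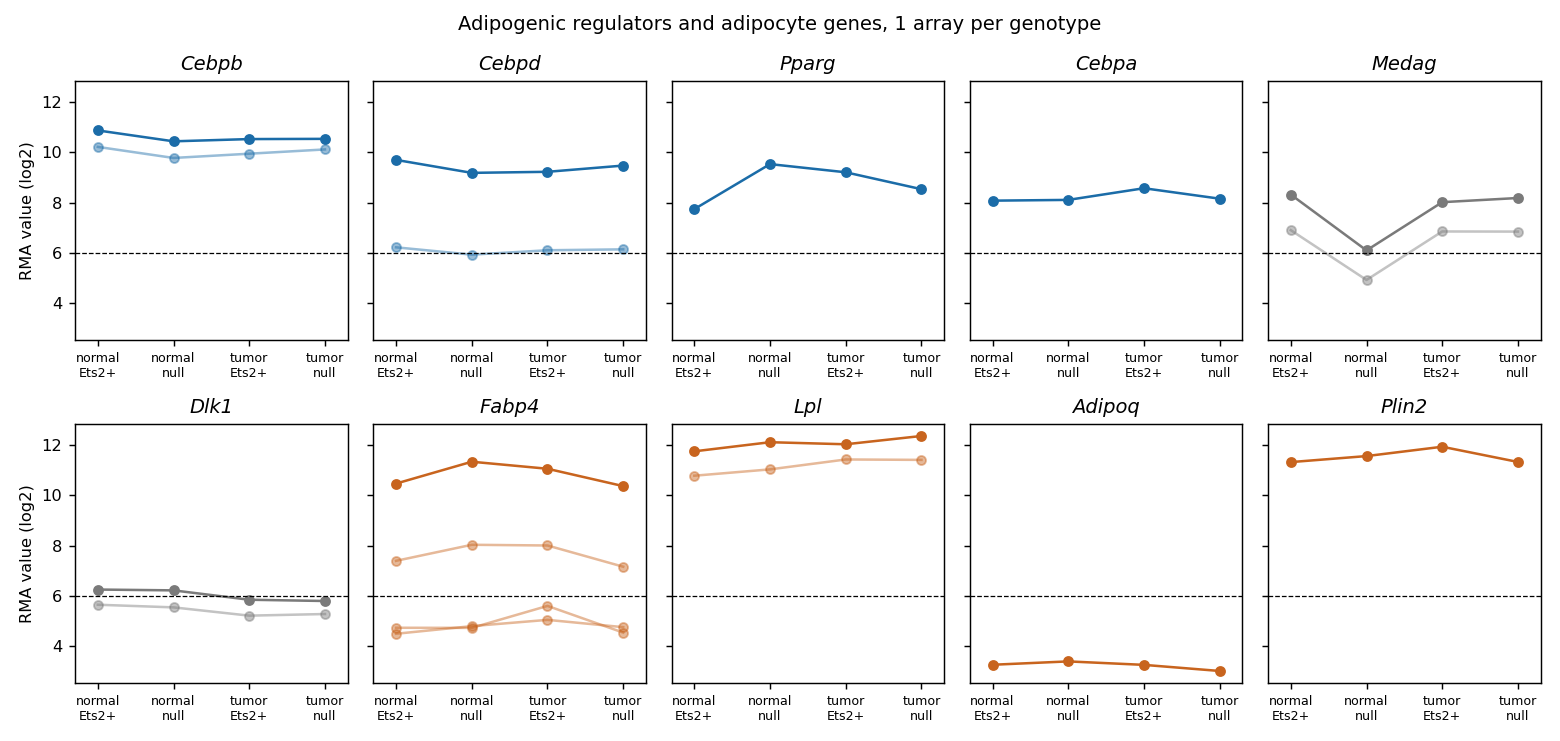
RMA log2 values (y axis) of every probe set of the 10 genes in the 4 arrays (x axis), with early regulators in blue, modulators in grey and adipocyte genes in orange; the brightest probe set of a gene is in full colour, lines join values of a probe set, and the dashed line marks 6. *Pparg* is lowest in normal fibroblasts with *Ets2*, at 7.74, and *Medag* in normal *Ets2* null fibroblasts, at 6.09, while *Adipoq* stays between 3.01 and 3.40.

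The start regions of both genes are shown because they carry the largest differences among the members. Promoter windows from RefSeq (build GRCm38.p6), reaching from 250 bases before to 50 bases after a start site, were listed for 7 of the 10 genes, in 10 windows, and *Cebpd*, *Fabp4* and *Lpl* have no entry. *Pparg* had 3 windows on the plus strand of chromosome 6, windows 2 and 3 starting 1205 and 60922 bases downstream of window 1, and *Medag* had 2 on the plus strand of chromosome 5, 2089 bases apart. Which start was used cannot be read from these probe sets. Capitals mark AGGTCA, the core bound by PPARγ with RXR and by other nuclear receptors, and TTNNGNAA, a loose C/EBP site, each searched on both strands.
Pparg window 1, chr6:115360894-115361193: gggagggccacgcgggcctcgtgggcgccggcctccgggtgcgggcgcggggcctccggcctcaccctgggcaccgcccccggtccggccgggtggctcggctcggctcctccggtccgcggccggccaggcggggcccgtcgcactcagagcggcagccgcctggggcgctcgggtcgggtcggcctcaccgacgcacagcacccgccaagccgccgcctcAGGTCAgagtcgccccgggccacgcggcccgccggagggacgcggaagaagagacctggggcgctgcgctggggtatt
Pparg window 2, chr6:115362099-115362398: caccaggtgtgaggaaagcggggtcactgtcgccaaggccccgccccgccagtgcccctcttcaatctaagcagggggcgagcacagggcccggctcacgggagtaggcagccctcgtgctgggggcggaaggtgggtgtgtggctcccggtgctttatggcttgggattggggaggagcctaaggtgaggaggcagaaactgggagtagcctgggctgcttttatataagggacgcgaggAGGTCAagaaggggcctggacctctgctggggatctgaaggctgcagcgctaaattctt
Pparg window 3, chr6:115421816-115422115: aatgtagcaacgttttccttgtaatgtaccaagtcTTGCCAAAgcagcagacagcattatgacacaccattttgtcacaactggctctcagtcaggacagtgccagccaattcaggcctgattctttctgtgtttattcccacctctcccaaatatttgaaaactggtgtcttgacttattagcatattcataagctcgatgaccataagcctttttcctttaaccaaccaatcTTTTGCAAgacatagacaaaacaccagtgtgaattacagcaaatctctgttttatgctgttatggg
Medag window 1, chr5:149411499-149411798: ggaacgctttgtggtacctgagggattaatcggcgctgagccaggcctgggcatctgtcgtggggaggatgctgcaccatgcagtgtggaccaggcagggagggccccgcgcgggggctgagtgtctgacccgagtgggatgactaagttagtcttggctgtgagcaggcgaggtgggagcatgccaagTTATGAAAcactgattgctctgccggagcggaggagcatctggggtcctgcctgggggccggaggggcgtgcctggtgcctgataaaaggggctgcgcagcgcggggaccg
Medag window 2, chr5:149413588-149413887: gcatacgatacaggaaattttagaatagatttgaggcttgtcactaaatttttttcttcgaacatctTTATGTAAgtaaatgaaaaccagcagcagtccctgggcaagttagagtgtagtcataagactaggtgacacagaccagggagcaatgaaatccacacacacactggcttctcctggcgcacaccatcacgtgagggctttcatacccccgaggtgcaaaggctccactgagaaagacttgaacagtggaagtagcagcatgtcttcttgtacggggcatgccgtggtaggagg

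AGGTCA stood at positions -28 and -9 from the start site in windows 1 and 2 of *Pparg*, and at -218 in the *Plin2* window, and 16.3% of the 32851 windows listed for all genes hold it. TTNNGNAA was in window 3 of *Pparg*, at -215 and -16, and in both *Medag* windows, at -61 in window 1 and -183 in window 2. It was also in the windows of *Dlk1* and *Adipoq*, and 40.7% of all windows hold it. The direct repeat of AGGTCA spaced by 1 base, the full PPAR site, was in none of the 10 windows and in 0.0396% of all. The C/EBP palindrome TTGCGCAA, a special case of the loose site, was in none of the 10 and in 0.183% of all. The ETS site CCGGAAGT and its shorter form CCGGAA were also in none of the 10, against 3.89% and 14.9% of all windows. These matches describe letters in short windows and say nothing of binding.

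The other early regulators differed by less than *Pparg*, and *Cebpb* and *Cebpd* lay beyond the robust SD in normal fibroblasts and *Cebpa* in tumor fibroblasts. *Cebpb*, which acts first in fat cell formation, was at 10.87 in the normal array with *Ets2*, at 10.44 in the normal *Ets2* null array and at 10.53 in both tumor arrays. Its second probe set gave 10.21, 9.77, 9.94 and 10.11, so the Ets2 difference in normal fibroblasts was -0.43 and -0.44 on the probe sets, and in tumor fibroblasts 0.01 and 0.17. *Cebpd*, its early partner, was at 9.70, 9.18, 9.22 and 9.47 on the brighter probe set, with differences of -0.52 in normal and 0.25 in tumor fibroblasts. On the dimmer probe set, near 6 throughout, they were -0.29 and 0.04. Both genes were highest in normal fibroblasts with *Ets2*, the array where *Pparg* was lowest. *Cebpa*, which sustains the mature state together with PPARγ, was at 8.07, 8.10, 8.57 and 8.15, so it differed by 0.03 in normal and by -0.42 in tumor fibroblasts. The higher *Pparg* of normal *Ets2* null fibroblasts thus stood beside lower *Cebpb* and *Cebpd* and a *Cebpa* that differed by less than the robust SD. *Dlk1*, the inhibitor, was at 6.26 and 6.22 in the normal arrays, just above the limit of 6, and at 5.85 and 5.80 in the tumor arrays, below it, and its second probe set lay between 5.22 and 5.65. Its Ets2 differences were between -0.11 and 0.06 on the 4 readings, none beyond the robust SD.

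Among the adipocyte genes, *Fabp4*, *Lpl* and *Plin2* were well above background in all 4 arrays and *Adipoq* was not. *Fabp4*, a carrier of fatty acids inside the cell and a target of PPARγ, was at 10.47 in normal fibroblasts with *Ets2*, 11.34 in normal *Ets2* null fibroblasts, 11.06 in tumor fibroblasts with *Ets2* and 10.37 in tumor *Ets2* null fibroblasts. It was 1.83-fold higher without *Ets2* in normal fibroblasts and 1.61-fold lower in tumor fibroblasts, at 0.87 and -0.69. A second probe set above 6 gave 7.40, 8.04, 8.01 and 7.16, differences of 0.64 and -0.84. The remaining 2 probe sets of *Fabp4* lay below 6 on every array, where a difference of -1.06 in tumor fibroblasts was not clearly above background. *Plin2*, which coats lipid droplets in many cell types, was at 11.33, 11.57, 11.94 and 11.33, differences of 0.24 and -0.61. *Fabp4* and *Plin2* were both lower in tumor fibroblasts without *Ets2*, as *Pparg* was. *Lpl*, the lipase that frees fatty acids from circulating triglycerides, was at 11.76, 12.12, 12.04 and 12.37, with differences of 0.36 and 0.33. Its second probe set gave 10.79, 11.04, 11.43 and 11.42, differences of 0.25 and -0.02. *Lpl* did not follow *Pparg* in tumor fibroblasts on either probe set. *Adipoq* was at 3.26, 3.40, 3.26 and 3.01, all near the floor of the arrays, so no fold is given.

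**Figure D2:**
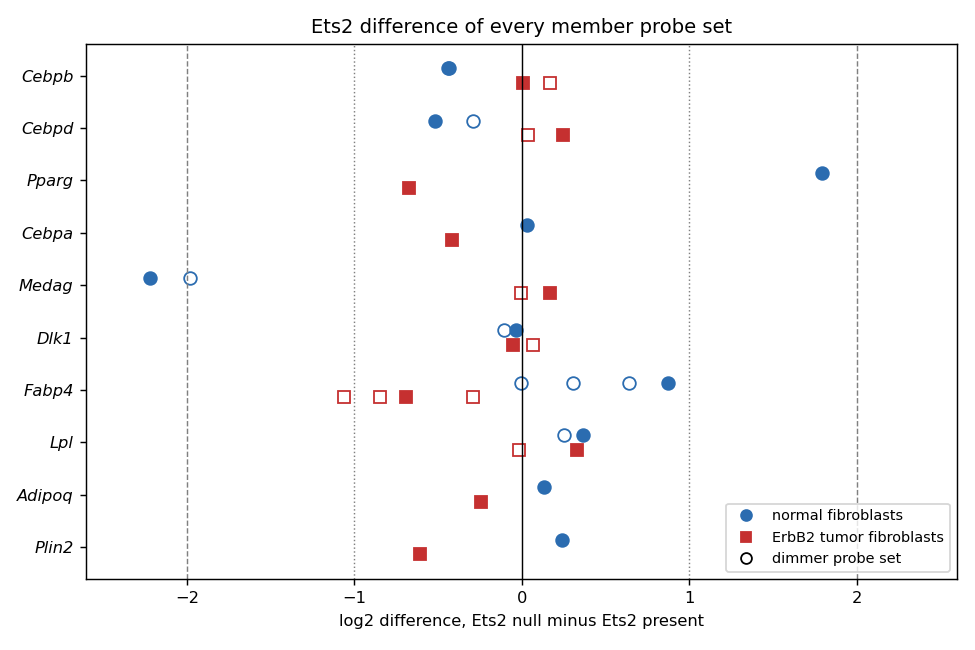
Log2 difference, *Ets2* null minus *Ets2* present (x axis), of every probe set of the 10 genes (y axis), in normal fibroblasts (blue circles) and *ErbB2* tumor fibroblasts (red squares), with open symbols for dimmer probe sets, dotted lines at 2-fold and dashed lines at 4-fold. *Pparg* lies at 1.79 and -0.67 and *Medag* at -2.22 and 0.17 on their brightest probe sets, and the adipocyte genes lie above 0 in normal fibroblasts on theirs.

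The median Ets2 difference of the adipocyte genes was above that of the early regulators in normal fibroblasts and below it in tumor fibroblasts, but the groups overlapped in both. *Pparg* lay above every adipocyte gene in normal fibroblasts, and *Lpl*, at 0.33, above every early regulator in tumor fibroblasts. In normal fibroblasts the median Ets2 difference of the 4 early regulators was -0.20 and that of the 4 adipocyte genes 0.30, a gap of -0.50. All 4 adipocyte genes were above 0 there, *Adipoq* at values near the floor. The mean of the early regulators was 0.22, of opposite sign to their median, because *Pparg* lay far above the other 3. In tumor fibroblasts the medians were -0.20 and -0.42, a gap of 0.22, and 3 of the 4 adipocyte genes were below 0. That gap was 0.094 between means and 0.40 without *Adipoq*, which stayed below 6. The medians over all 18194 genes were -0.00 in normal and 0.04 in tumor fibroblasts. The normal and tumor Ets2 comparisons share no array. *Pparg*, *Fabp4* and *Plin2* were higher without *Ets2* in normal fibroblasts and lower without it in tumor fibroblasts, each by more than the robust SD. So were 724 of the 18194 genes, and 6.55% of all genes exceeded the robust SDs in opposite directions of either kind. *Plin2* passed the robust SD in normal fibroblasts only just, at 0.24 against 0.225.

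The oncogene comparisons (tumor minus normal) use the same 4 arrays and so repeat part of these values. With *Ets2*, *Pparg* was 2.76-fold higher in tumor than in normal fibroblasts, at 1.47, and was the 1 member more than 2-fold higher, as were 0.830% of all genes. *Plin2*, *Fabp4* and *Cebpa* were higher by 0.61, 0.59 and 0.49, and *Cebpb* and *Cebpd* were at -0.34 and -0.47. Without *Ets2*, *Pparg* and *Fabp4* were lower in tumor fibroblasts, at -0.998 and -0.97, and *Plin2* was at -0.23. With the arrays centred on their medians *Pparg* was at -1.01, past 2-fold, and on the mean of its probe sets *Fabp4* was at -0.52. *Lpl* was higher in tumor fibroblasts in both comparisons, at 0.28 with and 0.25 without *Ets2*, and at 0.65 and 0.38 on its second probe set. *Medag* was 4.24-fold higher in tumor than in normal fibroblasts without *Ets2*, at 2.09, and was the 1 member past 4-fold, as were 0.0715% of all genes in that direction. With *Ets2* its difference was -0.30. *Dlk1* was lower in both oncogene comparisons, at -0.41 and -0.42, with tumor values below 6. The gap between the medians of early regulators and adipocyte genes was -0.36 with *Ets2* and 0.38 without it. Without *Ets2* the median of the early regulators was 0.07 and their mean -0.14.

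Markers of other cells moved with some members. In tumor fibroblasts without *Ets2*, where *Pparg*, *Fabp4* and *Plin2* were lower, 19 of 20 macrophage markers were below 0, with a median Ets2 difference of -1.19, and 11 were more than 2-fold lower. *Cd68*, a lysosomal protein of macrophages, was at 10.56 with *Ets2* and 8.21 without, and *Csf1r*, their growth factor receptor, at 10.58 and 9.60. The summed level of the list, the log2 of its summed linear values, was 13.49, 13.22, 14.40 and 13.07 in the order of arrays used above. In normal fibroblasts without *Ets2*, where *Pparg* and *Fabp4* were higher, 15 of the 20 were below 0, with a median of -0.27. *Aif1* was the 1 macrophage marker below 6 on every array. Epithelial markers had summed levels of 10.33, 11.74, 11.46 and 9.84 in the same order. Of 13, 12 were above 0 in normal fibroblasts, 8 of them by more than 2-fold, and 12 were below 0 in tumor fibroblasts, 9 of them by more than 2-fold, with medians of 1.38 and -1.55. The arrays with more *Pparg* and *Fabp4* without *Ets2* in normal fibroblasts, and with *Ets2* in tumor fibroblasts, were thus also those with more of these markers. *Krt8*, *Krt18*, *Krt14* and *Epcam* are in a gene list the study drew from the normal arrays. The study's probe set of *Epcam*, higher without *Ets2*, is not the brightest one used here. On the latter *Epcam* was at 8.29 with and 7.98 without *Ets2* in normal fibroblasts, the 1 epithelial marker below 0 there. Because of that list, the epithelial counts in normal fibroblasts are not independent evidence. The study drew another list from the tumor arrays by the same size, and its genes could not be read here. The epithelial and macrophage counts in tumor fibroblasts are thus not called independent either. *Cdh1*, *Cldn7* and *Elf5* were below 6 on every array. Endothelial markers had summed levels of 10.47, 9.72, 10.16 and 9.62, with 12 of 13 below 0 in normal and 13 of 13 in tumor fibroblasts, and *Tek*, *Tie1* and *Vwf* were below 6 throughout. Endothelial markers were lower without *Ets2* in both comparisons, with medians of -0.72 in normal and -0.48 in tumor fibroblasts. *Fabp4* was higher without *Ets2* in normal fibroblasts, at 0.87, and lower in tumor fibroblasts, at -0.69. *Medag*, low in the normal *Ets2* null array, stood beside fibroblast markers with a median of -0.40 there, 12 of 15 below 0, and of -0.16 in tumor fibroblasts. The part of these cells in the members' values was not tested.

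**Figure D3:**
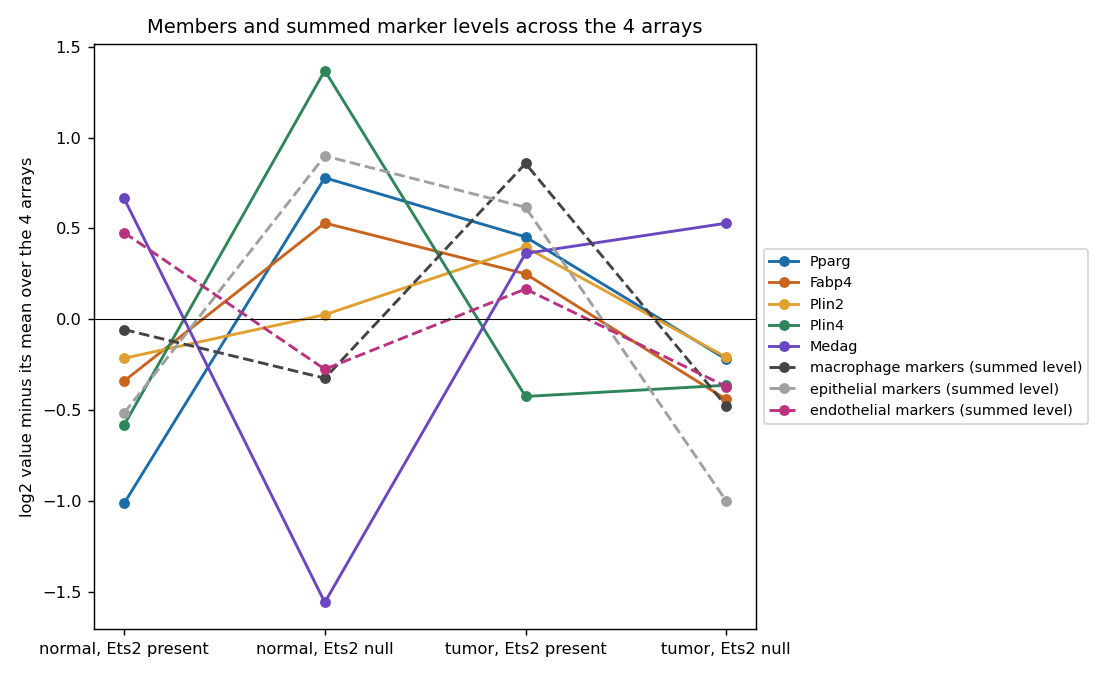
Log2 value minus its mean over the 4 arrays (y axis) of 5 genes on their brightest probe sets (solid lines) and of the summed levels of 3 marker lists (dashed lines), in the 4 arrays (x axis), with lines joining values of a gene or list. *Pparg* and the epithelial markers are higher in the normal *Ets2* null and the tumor *Ets2* present arrays than in the other 2, and the macrophage markers peak in tumor fibroblasts with *Ets2*, at a summed level of 14.40.

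Other genes of fat storage showed a few large differences and no common shift. *Plin4*, a lipid droplet coat protein and PPARγ target, was at 6.38 in normal fibroblasts with *Ets2* and 8.33 without, 3.86-fold higher, and at 6.54 and 6.60 in tumor fibroblasts. Its high array was thus the one where *Pparg* was highest, while in tumor fibroblasts it did not follow *Pparg*. Of 19 measured lipid droplet and triglyceride genes, *Plin4* was the 1 more than 2-fold higher in normal fibroblasts and none was lower by that size, with a median of 0.11. In tumor fibroblasts *Mgll*, a lipase for monoglycerides, was the 1 more than 2-fold lower, at -1.05, and the median was 0.05. *G0s2*, an inhibitor of triglyceride breakdown, differed by 0.66 and -0.12, and *Lpin1*, which makes diglyceride, by 0.15 and 0.81. Of 16 fatty acid uptake and handling genes, none passed 2-fold in normal fibroblasts, and in tumor fibroblasts 2 were lower and 1 higher. *Cd36*, a fatty acid receptor of fat cells and macrophages, was at 8.45, 8.64, 10.61 and 6.88, 13.3-fold lower without *Ets2* in tumor fibroblasts. *Fabp5*, a relative of *Fabp4*, was at 12.58, 12.47, 12.81 and 11.71, and *Acsl3*, which activates fatty acids, was higher without *Ets2* in tumor fibroblasts by 1.01. *Gpihbp1*, which holds lipoprotein lipase on capillaries, differed by -0.88 and -0.37. The medians of this list were -0.18 and -0.06. Of 17 PPAR target genes, 1 was more than 2-fold higher in normal fibroblasts (*Plin4*) and 2 lower in tumor fibroblasts (*Cd36* and *Fabp5*), with medians of 0.07 and -0.06. *Pdk4*, a kinase that spares glucose, differed by 0.81 in normal fibroblasts, from a value below 6. Neither median was far from that of all genes, -0.00 and 0.04.

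Of 16 adipokines and other mature adipocyte genes, 9 were below 6 on every array. Over all 18194 genes, 10935 besides *Pparg* reached 6 on at least 1 array, so values below 6 throughout were common. *Rbp4*, the carrier of retinol in blood, was at 6.73, 7.19, 8.20 and 6.33, the 1 gene of this list more than 2-fold lower without *Ets2* in tumor fibroblasts, at -1.87. *Apln*, the ligand of the apelin receptor, was at 8.55, 6.97, 7.27 and 7.40, lower without *Ets2* in normal fibroblasts by a difference of -1.58. *Itih5*, at 3.90 and 4.92 there, passed 2-fold upward below the limit of 6. *Tmem120a* and *Thrsp* differed by at most 0.32 in either Ets2 comparison. The medians of the list were 0.13 and 0.12.

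Few regulators around the members passed 2-fold. Of 6 PPAR and RXR genes, *Pparg* was the 1 past 2-fold, and *Ppard*, the broadly expressed PPAR, differed by -0.50 and 0.03. *Rxra*, the usual partner of PPARγ, stayed between 8.06 and 8.29, *Rxrb* differed by -0.45 and -0.17, and *Ppara* and *Rxrg* were below 6 throughout. The list medians were -0.16 and 0.08. Of 5 measured C/EBP genes, 4 were below 0 in normal and 4 above 0 in tumor fibroblasts, with medians of -0.44 and 0.15. *Ddit3*, or CHOP, which blocks other C/EBP proteins, was at 10.14, 8.96, 9.80 and 10.67, lower without *Ets2* in normal fibroblasts by -1.19 and higher in tumor fibroblasts by 0.87. *Cebpg* differed by -0.44 and 0.15. Of 30 adipogenic activators none passed 2-fold in normal fibroblasts, with a median of -0.02. In tumor fibroblasts *Igf1*, a growth factor that aids fat cell formation, was higher without *Ets2* by 1.25, and *Klf5*, an activator of *Pparg*, was at 8.68 with and 7.28 without, a difference of -1.40, with a list median of 0.03. *Fgf10*, a growth factor of fat pad stroma, differed by 0.83 in normal fibroblasts. Of 26 measured genes listed here as inhibitors, 1 was more than 2-fold higher in normal fibroblasts (*Id2*) and 2 were lower. In tumor fibroblasts 1 was lower by that size, again *Id2*, and the medians were 0.02 in normal and -0.14 in tumor fibroblasts. *Id2*, a helix-loop-helix protein that cannot bind DNA itself, was at 8.55, 9.59, 10.13 and 8.44. Its Ets2 differences, 1.04 and -1.68, had the signs of those of *Pparg*. How *Id2* acts in these cells was not tested. *Tgfb1*, a growth factor that restrains fat cell formation, was at 8.98 and 7.88 in normal fibroblasts, a difference of -1.10 beside the higher *Pparg*, and *Klf3* differed by -0.22 and -0.82. Of 18 measured markers of adipocyte progenitors, *Cd24a* was the 1 gene past 2-fold in either Ets2 comparison, and the medians were -0.06 and -0.12. *Cd24a*, a surface protein that epithelial cells also carry, was at 5.85, 7.95, 7.69 and 4.95, high in the arrays with more epithelial markers.

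**Figure D4:**
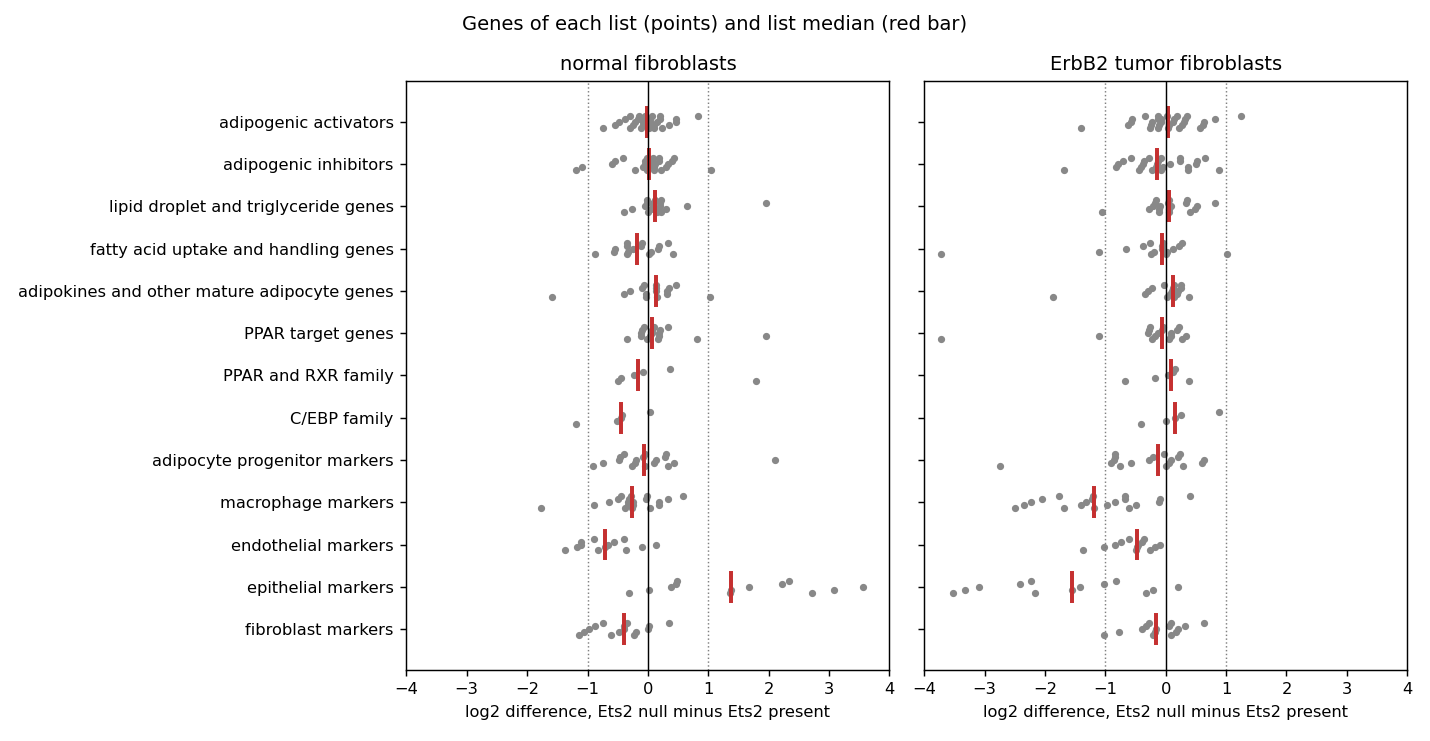
Log2 difference, *Ets2* null minus *Ets2* present (x axis), of the measured genes of each list (points; y axis) on their brightest probe sets, in normal (left) and *ErbB2* tumor fibroblasts (right), with list medians as red bars and dotted lines at 2-fold. Apart from the C/EBP genes, at -0.44 and 0.15, the adipogenic and lipid lists have medians between -0.18 and 0.13, while the epithelial markers lie at 1.38 and -1.55 and the macrophage markers at -0.27 and -1.19.

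Over the 4 arrays, the 3 genes whose centred values lay nearest to those of *Pparg*, among 10935 genes reaching 6, were *Slc16a7*, *Cdcp1* and *Flrt3*, at Euclidean distances of 0.48, 0.55 and 0.56 on the log2 scale. *Slc16a7*, a monocarboxylate transporter, was at 4.64, 6.06, 5.44 and 5.17. It passed 6 only in the normal *Ets2* null array, and so did *Cdcp1*, so both profiles lie near background. Those nearest to *Medag* were *Car6*, *Igfbp3* and *Lgi2*, at 0.54, 0.68 and 0.74. *Igfbp3*, a binding protein of insulin-like growth factors, was at 7.78, 6.45, 7.76 and 8.28. It was low in the normal *Ets2* null array as *Medag* was, which follows from its choice by likeness.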

How the data were processed

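The deposited values, 1 column for each of 4 Affymetrix arrays, are log2 expression values that the authors made with RMA, per the labels. RMA subtracts background, gives the probe intensities of all arrays the same distribution and then combines the probes of each set. This hides any shift common to most genes. The combined values still differed slightly in distribution, with array medians between 5.51 and 5.54. The sources used here state neither its version nor its probe definitions. Gene symbols came from the platform annotation. Of 45101 probe sets, 932 with several symbols and 9211 unnamed here were named as no gene. Each gene was read on its brightest probe set (highest mean of the 4 values), and the 10 genes on all of theirs. Differences and counts were made with pandas 2.3.3 and numpy 2.4.6 under Python 3.11.15, figures with matplotlib 3.10.9. Counts used the study's size, a log2 difference over 2 (4-fold), with 2-fold beside it. The number of arrays limits the precision. The genes and lists (adipogenic activators and inhibitors, lipid droplet, fatty acid, adipokine, PPAR target, PPAR and RXR, C/EBP and progenitor genes, and macrophage, endothelial, epithelial and fibroblast markers) were chosen with earlier results of these data known. *Medag*, under an older clone name, is in a gene list the study drew from these arrays. *Krt8*, *Krt18*, *Krt14*, *Epcam*, *Cd24a* and *Lgi2* are in that list too. Named list genes are the 4 with the largest Ets2 difference whose higher value reached 6. *Col1a2*, *Vim*, *Csf1r*, *Itih5*, *Ppara*, *Rxrg* and the genes given as below 6 were picked with their values in view. The difference and call steps were first tested on simulated data. Other sizes, probe set choices and normalizations (a loess with span 0.4 from statsmodels 0.14.6 among them) were tried, as the closing section reports. Fibroblasts of the study's other tumor model and its endothelial cells were not analysed here.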

Additional observations from a re-analysis of the deposited data

Results flagged for a closer look

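The Ets2 difference had opposite signs in normal and tumor fibroblasts, each beyond the robust SD over all probe sets, for *Pparg*, *Fabp4* and *Plin2*. The tumor difference minus the normal difference was -2.46 for *Pparg*, -1.56 for *Fabp4* and -0.85 for *Plin2*, on their brightest probe sets. *Plin2* passed the robust SD in normal fibroblasts only just, at 0.24 against 0.225, and 29.0% of all genes differed by as much there. For *Fabp4* the second probe set above 6 gave -1.48. With 1 array for each genotype, the difference between the comparisons was not tested, and 6.55% of all genes had opposite signs by the same measure.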

How the results depend on the processing

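No paired analysis was possible because each genotype has 1 array, and no replicate could be left out. In normal fibroblasts the count of the 10 genes past 4-fold for *Ets2* was 1 under each other probe set choice, normalization and filter tried, while it was 2 at 2-fold and 0 at 8-fold. For the oncogene with *Ets2* the count of 0 became 1 at 2-fold, and without *Ets2* the count of 1 became 0 at 8-fold. With means in place of medians, the gap between early regulators and adipocyte genes was -0.18 in normal fibroblasts for *Ets2* and -0.084 for the oncogene with *Ets2*, against -0.50 and -0.36. It was 0.094 in tumor fibroblasts for *Ets2* and 0.19 for the oncogene without *Ets2*, against 0.22 and 0.38. Without genes below 6 on both arrays compared, the tumor gap for *Ets2* was 0.40. Of 275 values of single genes under the alternatives, 269 moved by less than the robust SD, 6 moved by more and 0 changed sign by more than it. All 6 came from another choice of probe set, 4 of them for *Fabp4*. Many of the 269 could not move, so their number does not measure stability. *Pparg*, *Cebpa*, *Adipoq* and *Plin2* have 1 probe set each, which no other choice of probe set could alter. The filter at 6 drops genes but changes no value, and leaving out probe sets of the _x_at and _s_at kinds altered *Dlk1* alone. Signal limits *Adipoq*, *Dlk1* and the dimmer *Fabp4* probe sets, whose values lay near or below 6.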
